A study of Homo sapiens with 24 samples.

Results

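The HOX genes are the homeobox transcription factor genes of 4 chromosomal clusters, HOXA, HOXB, HOXC and HOXD. They were chosen here by name, as 38 protein-coding genes of paralog groups 1 to 13 among the 62757 genes of the count table: 10 in HOXA, 10 in HOXB, 9 in HOXC and 9 in HOXD. The paralog number gives the position of a gene within its cluster, with group 1 at the end transcribed first and group 13 at the other end. The choice rested on gene names and not on measured values, but earlier results of these data were known when it was made.

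HOX proteins bind DNA with cofactors of the PBX, MEIS and PKNOX families and give cells their position along the head-to-tail axis of the embryo. In development the clusters open in order, from the low to the high paralog numbers, and retinoic acid turns on the low-numbered genes in hindbrain, pharyngeal arches, foregut and mesoderm. In the embryonic heart, retinoic acid and low-numbered HOX genes mark progenitors of the second heart field, which give rise to the outflow tract and the atria.

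The 24 libraries are bulk RNA-seq of embryoid body cultures, 3-dimensional aggregates driven toward cardiomyocytes by a Wnt-modulating protocol over at most 14 days. All came from the human embryonic stem cell line HES3 carrying GFP at NKX2-5 and mCherry at NR2F2, and all were edited with CRISPR-Cas9. The label AM was read as the atrial condition, which received retinoic acid at day 4, and VM as the ventricular condition, which did not; the labels do not spell the letters out. In each condition 4 genes were targeted, TRAC (a T cell receptor gene, the control), LHX2, ZNF503 and ZNF711, with 3 libraries each, so that AM and VM hold 12 libraries each. The labels do not say whether an edited population was a clone, nor whether the libraries of a group came from separate differentiations, so p-values measure the spread between these libraries, which may be technical. LHX2 RNA was between 0 and 34 counts in every library, and ZNF711 RNA in the libraries labelled ZNF711 was 31.2 to 55.8 CPM (a gene's counts relative to the TMM-scaled total of its library) in AM, against 47.4 to 60.3 with TRAC, and 25.9 to 33.9 CPM in VM, below all VM TRAC libraries at 34.6 to 48.01. In the ZNF503 groups the level of ZNF503 RNA exceeded that of TRAC (255 to 367 CPM in AM, against 103 to 122.8), and for that reason targets are named below as the libraries are labelled. RNA counts alone do not show whether a targeted protein was lost. Library totals ran from 2899786 to 7438010 counts, so that 3 counts in 1 library equal 0.403 to 1.03 CPM.

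The conditions were first read against defining markers. In the fit described below, averaged over targets, the atrial regulator NR2F2 was higher in AM (log2 fold change 3.45, adjusted p = 6.08e-14) and the ventricular regulator IRX4 lower (-5.98, adjusted p = 3.92e-11). Of all genes tested, 16.8% were called higher and 17.6% lower in AM. Of 6 atrial markers 4 were higher and 1, the myosin light chain gene MYL7, was lower (-0.93, adjusted p = 0.000181), and their summed level overlapped (1058 to 2029 CPM in AM, 944 to 1871 CPM in VM). The atrial marker NPPA (log2 fold change -0.88, adjusted p = 0.0682) was called lower only with the replicate number as a block (adjusted p = 0.00545, edgeR). All 5 ventricular markers were lower in AM. The labelled cell type, cardiomyocyte, was present in every library, with the summed level of 6 cardiomyocyte markers between 9881 and 39590 CPM. Cells of other types were present too. Markers of hepatic endoderm summed to 1291 to 24250 CPM in VM and to 109 to 1133 CPM in AM, with 4 of 6 lower in AM and 1, SOX17, higher (log2 fold change 1.58, adjusted p = 1.46e-05), and fibroblast markers to 1288 to 3772 CPM in VM and 3534 to 5855 CPM in AM, with 3 of 5 higher in AM. Summed neural markers were 29.3 to 67.0 CPM in VM and 40.5 to 129 CPM in AM. In bulk RNA, fewer cells of a type and less RNA per cell cannot be told apart, and the part of these other cells in the HOX values was not tested.

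Promoters are shown for 4 of the low-numbered genes that the results turn on, because the genes differed between conditions and the windows carry, or lack, the motifs through which HOX cofactors are known to act. RefSeq (GRCh38.p14) gave a promoter window, from 250 bases before to 50 after the start, for 20 of the 38 genes. The windows lie on the minus strand at chr7:27102634-27102933 (HOXA2), chr7:27152534-27152833 (HOXA3), chr7:27130708-27131007 (HOXA4) and chr17:48530962-48531261 (HOXB1), and capitals mark the CCAAT box (CCAAT), the TATA box (TATAAA), a joint PBX and HOX site (TGATNNAT) and a MEIS or PKNOX site (TGACAG), on either strand.
HOXA2: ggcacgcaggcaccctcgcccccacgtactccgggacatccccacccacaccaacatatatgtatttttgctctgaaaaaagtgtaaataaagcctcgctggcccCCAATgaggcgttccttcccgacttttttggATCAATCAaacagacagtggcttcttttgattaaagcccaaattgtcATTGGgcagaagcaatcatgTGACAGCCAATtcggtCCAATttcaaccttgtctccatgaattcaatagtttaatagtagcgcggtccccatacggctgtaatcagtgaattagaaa
HOXA3: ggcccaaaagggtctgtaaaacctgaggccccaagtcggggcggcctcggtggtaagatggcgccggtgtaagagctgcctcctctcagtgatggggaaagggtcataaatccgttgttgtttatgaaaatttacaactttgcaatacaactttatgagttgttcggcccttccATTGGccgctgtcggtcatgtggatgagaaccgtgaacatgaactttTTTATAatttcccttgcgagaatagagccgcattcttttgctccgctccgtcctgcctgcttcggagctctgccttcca
HOXA4: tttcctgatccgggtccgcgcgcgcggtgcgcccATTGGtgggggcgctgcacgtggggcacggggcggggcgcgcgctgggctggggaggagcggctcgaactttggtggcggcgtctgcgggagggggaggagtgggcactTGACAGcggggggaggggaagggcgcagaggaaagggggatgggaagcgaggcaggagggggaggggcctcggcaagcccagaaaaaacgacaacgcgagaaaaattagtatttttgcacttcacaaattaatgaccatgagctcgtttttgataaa
HOXB1: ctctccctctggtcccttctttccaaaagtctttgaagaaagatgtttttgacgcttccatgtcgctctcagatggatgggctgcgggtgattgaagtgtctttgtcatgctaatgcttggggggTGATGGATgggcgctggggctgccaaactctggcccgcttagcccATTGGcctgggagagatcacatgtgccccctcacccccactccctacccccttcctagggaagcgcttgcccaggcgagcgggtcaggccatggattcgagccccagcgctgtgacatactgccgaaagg

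HOXA2 and HOXB1 each hold 1 PBX and HOX site, which 3 of the 20 HOX windows and 7.6% of all 27305 promoter windows hold. HOXA2 and HOXA4 each hold a MEIS or PKNOX site, found in 4 of the 20 and in 15.9% of all windows. HOXA3 alone of these 4 holds a TATA box, which 4 of the 20 and 12% of all windows hold. Its window lies at the upstream end of the annotated HOXA3 span, chr7:27106184-27152581, which also covers HOXA4, HOXA5 and HOXA6. Counts per gene do not show which start of HOXA3 was used in these cells. CCAAT boxes were in 17 of the 20 HOX windows and in 35.7% of all windows, and HOXA2 holds 4 of them; HOXC4 and HOXC5 share one window and are counted as 2. Retinoic acid receptors bind paired short elements in the same orientation, searched as any 2 of AGGTCA or AGTTCA or GGGTCA or GGTTCA with 2 or 5 bases between. None of the 20 HOX windows held a pair, against 0.0439% of all windows with 2 bases between and 0.0806% with 5. At shares this low, 20 windows are too few to show a lack of pairs. A single element was in 8 of the 20, among them HOXA3 and HOXB1, and in 38.7% of all windows. A match is a run of letters and no evidence of binding, and enhancers outside these short windows were not searched.

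HOX transcripts came almost wholly from the low-numbered end of the clusters. Of the 38 genes, 15 had no count in any library: HOXA6, HOXA7, HOXA9, HOXA10, HOXA11, HOXB8, HOXB13, HOXC5, HOXC8, HOXC9, HOXC10, HOXC11, HOXD10, HOXD11 and HOXD12. The 11 genes of paralog groups 1 to 4, each with a count in at least one library, held 5105 of the 5298 HOX counts in AM (96.36%) and 1594 of 1689 in VM (94.38%). The 3 genes of group 5 held 106 counts in AM and 24 in VM, the 8 genes of groups 6 to 8 held 33 and 9, and the 16 genes of groups 9 to 13 held 54 and 62. These are totals over 12 libraries a condition, with no test.

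The conditions differed in how much HOX RNA was present and in which cluster it came from. Summed over the 38 genes, HOX RNA was 71.0 to 104.8 CPM in the AM libraries (median 83.5) and 14.4 to 48.3 CPM in the VM libraries (median 26.6), with no overlap. HOXB genes held 3970 counts in AM and 1624 in VM, the larger share in both conditions (74.93% and 96.15%). HOXA genes held 1210 counts in AM and 24 in VM. Per library, HOXA made up 15.4% to 28.2% of HOX counts in AM (median 23.5%) and 0% to 12.3% in VM (median 0.589%), the highest VM value being that of ZNF503 replicate 3. HOXC held 76 and 33 counts and HOXD 42 and 8.

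**Figure D1:**
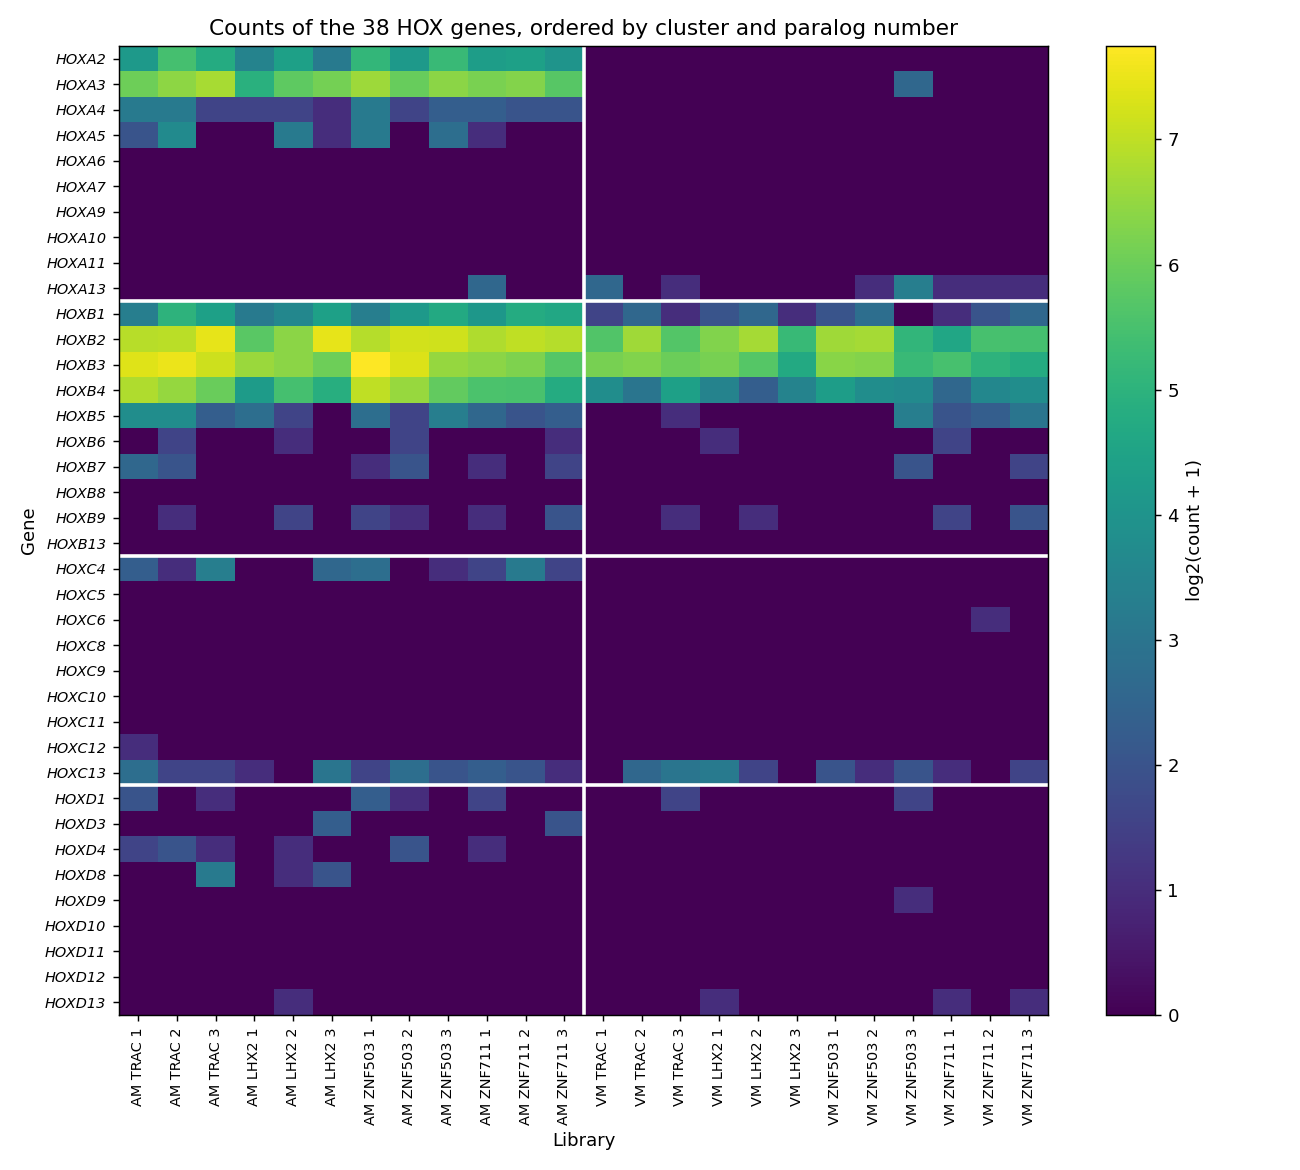
Counts of each of the 38 HOX genes (rows, by cluster and paralog number) in each of the 24 libraries (columns, AM left of the white line and VM right of it), as log2(count + 1). HOXB2 and HOXB3 hold the most counts in both conditions, followed in AM by HOXA3 and HOXB4. The HOXA2 and HOXA4 rows hold counts in AM only, HOXA3 holds 5 counts in 1 VM library, and 15 rows are empty.

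Levels can be compared between genes only per length, taken here as CPM per kilobase of exons in GENCODE 29. The length joins the exons of all annotated transcripts of a gene, 7.456 kilobases for HOXB3 and 2.336 for HOXB2. Which transcripts were present is not known, so the order of genes below depends on this choice of length. On that scale HOXB2 was the most abundant HOX gene in AM, at 10.6 ± 2.28 CPM per kilobase (SD, n = 12), and in VM, at 5.56 ± 2.91 (SD, n = 12). In AM the next levels were HOXA3 with 3.25 ± 0.601, HOXB4 with 3.15 ± 1.41 and HOXB3 with 3.08 ± 1.05 CPM per kilobase, which do not differ beyond their SDs. Below them HOXA2 with 1.76 ± 0.641 and HOXB1 with 1.46 ± 0.580 CPM per kilobase likewise lie within their SDs of each other, and HOXB5 stood at 0.541 ± 0.360. In VM, HOXB3 followed HOXB2 at 1.5 ± 0.620, then HOXB4 at 0.611 ± 0.253 and HOXB1 at 0.242 ± 0.167 CPM per kilobase. By this length HOXA3 thus stood beside HOXB3 and HOXB4 in AM, whereas in VM it averaged 0.0208 CPM per kilobase.

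The comparison of AM with VM asks how the HOX genes differ between the retinoic acid and the other condition. A gene was tested if edgeR's filterByExpr kept it (17724 genes), and was called at a Benjamini-Hochberg adjusted p below 0.05 over all genes tested, by edgeR's quasi-likelihood test. The filter kept 7 HOX genes: HOXA2, HOXA3, HOXB1, HOXB2, HOXB3, HOXB4 and HOXB5. Averaged over the 4 targets, all 7 were called and higher in AM, where 34.5% of all genes tested were called and 16.8% were called higher in AM. With the replicate number added as a block, all 7 were called again (41.7% of all genes tested). A gene that is high in a single condition can pass the filter through it, so this count is a description of the 7. In 4 of the 7 (HOXA2, HOXA3, HOXB1 and HOXB4) every AM library was above every VM library, which held for 2.69% of all genes tested.

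HOXB1, which gives the hindbrain segment of the facial nerve its identity and is a classical direct target of retinoic acid, ranged from 1.48 to 6.25 CPM in AM (median 3.46) and from 0 to 1.23 CPM in VM (median 0.564). No VM library reached an AM library. It rested on few reads, 8 to 31 counts in each AM library and 0 to 6 in each VM library. The averaged log2 fold change was 2.53 (SE 0.39, adjusted p = 1.59e-05, edgeR). Within targets it was called with TRAC (adjusted p = 0.0283) and ZNF711 (adjusted p = 0.0144), and in LHX2 and ZNF503 after the replicate number was added as a block (adjusted p = 0.0309 and 0.0432). With a block within each condition it was called in none of the 4 (adjusted p = 0.111 TRAC, 0.207 LHX2, 0.248 ZNF503, 0.0877 ZNF711). The TRAC call was lost when AM replicate 2 or 3 or VM replicate 1 or 3 was left out (adjusted p = 0.128, 0.0679, 0.0783 and 0.122), and the ZNF711 call without AM replicate 3 or VM replicate 1 or 2 (adjusted p = 0.0503, 0.0548 and 0.0597).

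HOXA2, which patterns the second pharyngeal arch, had no count in the VM libraries. In AM it was 3.07, 6.71 and 4.74 CPM with TRAC (replicates 1, 2 and 3), 3.21, 5.17 and 1.52 CPM with LHX2, 5.60, 3.11 and 6.87 CPM with ZNF503, and 3.89, 4.03 and 3.903 CPM with ZNF711. All 12 VM libraries were at 0 counts, which allows up to 0.0505 CPM (3 counts over the whole VM group, counting error only). Every AM library was above that limit. The AM mean of 4.32 ± 1.58 CPM (SD, n = 12) was at least 85.5-fold higher, and HOXA2 was called overall (adjusted p = 1.26e-08) and in each of the 4 targets (largest adjusted p 0.000571, LHX2).

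HOXB2 sits next to HOXB1 in its cluster and acts in the hindbrain segments around it; it was the HOX gene with the widest spread in VM (SD 6.79 CPM, n = 12). In AM it was 21.9, 19.0 and 31.9 CPM with TRAC, 17.02, 21.5 and 33.3 CPM with LHX2, 19.4, 27.1 and 26.7 CPM with ZNF503, and 22.9, 25.8 and 30.7 CPM with ZNF711. In VM it was 10.1, 20.2 and 7.45 CPM with TRAC, 14.5, 21.9 and 7.20 CPM with LHX2, 23.5, 21.0 and 7.09 CPM with ZNF503, and 5.69, 8.28 and 8.99 CPM with ZNF711. The 2 conditions overlap, through VM libraries of TRAC (replicate 2), LHX2 (replicate 2) and ZNF503 (replicates 1 and 2). The averaged log2 fold change was 0.99 (SE 0.21, adjusted p = 0.000545). Within targets this fit called it in ZNF711 alone (log2 fold change 1.78, SE 0.43, adjusted p = 0.0074), against 0.96 (SE 0.41, adjusted p = 0.144) in TRAC. In TRAC it was called without a filter (0.98, adjusted p = 0.014, edgeR) and without VM TRAC replicate 2 (1.48, adjusted p = 0.0333, edgeR). The difference between ZNF711 and TRAC in the main fit was itself 0.82 (SE 0.59) and was not called (adjusted p = 0.931).

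HOXA3, which the third pharyngeal arch needs to form thymus and parathyroid, was the most abundant HOXA gene. In AM it was 11.8, 13.4 and 19.3 CPM with TRAC, 9.31, 14.5 and 13.1 CPM with LHX2, 15.8, 11.2 and 15.4 CPM with ZNF503, and 14.7, 15.7 and 13.5 CPM with ZNF711. In VM it was 0 in 11 libraries and 1.07 CPM in ZNF503 replicate 3, which held all 5 VM counts. The lowest AM library was well above that one VM library. With VM at 0, the AM mean was at least 81.2-fold higher in TRAC, 61.6-fold in LHX2 and 69.1-fold in ZNF711, and in ZNF503 the ratio of means was 39.5. HOXA3 was called overall (adjusted p = 2.10e-11) and in all 4 targets (largest adjusted p 1.63e-05, ZNF503). In GENCODE 29, 9.24% of its exons overlap other genes on the same strand and 15.4% overlap HOXA-AS2 and HOXA-AS3 on the other strand, so its reads cannot be fully told from theirs where the counting did not use strand, which is not stated.

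HOXB3, which acts with HOXA3 in the hindbrain and pharyngeal arches, was present in both conditions. In AM it was 29.7, 28.6 and 25.9 CPM with TRAC, 30.2, 21.7 and 12.4 CPM with LHX2, 35.3, 29.7 and 16.9 CPM with ZNF503, and 17.2, 15.1 and 13.3 CPM with ZNF711. In VM it was 14.6, 15.7 and 9.39 CPM with TRAC, 13.2, 10.8 and 5.00 CPM with LHX2, 19.0, 16.1 and 7.95 CPM with ZNF503, and 10.9, 5.83 and 5.43 CPM with ZNF711. The conditions overlap when all 24 libraries are pooled, but within each replicate number of each target AM was above VM in 12 of 12 pairs. The share of all genes with this pattern was not counted, and the labels do not say what a replicate number marks. The averaged log2 fold change was 1.05 (SE 0.19, adjusted p = 8.34e-05). No single target was called in the fit without a block (adjusted p = 0.0519 TRAC, 0.0644 LHX2, 0.128 ZNF503, 0.0737 ZNF711), and all 4 were called with it (adjusted p = 0.000497, 0.00109, 0.00438 and 0.0021). HOXB3 shares 7.94% of its exons with HOXB4 and HOXB6 on the same strand.

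HOXB4, which marks the caudal hindbrain and expands blood stem cells when overexpressed, separated the conditions in every library. In AM it was 20.3, 14.2 and 11.3 CPM with TRAC, 5.78, 11.1 and 5.32 CPM with LHX2, 21.1, 17.02 and 10.8 CPM with ZNF503, and 9.41, 9.06 and 6.77 CPM with ZNF711. In VM it was 2.67, 1.44 and 2.98 CPM with TRAC, 1.88, 0.850 and 2.001 CPM with LHX2, 4.46, 2.66 and 2.58 CPM with ZNF503, and 1.24, 2.07 and 2.72 CPM with ZNF711. The highest VM library, at 4.46 CPM, was below the lowest AM library, at 5.32 CPM. The averaged log2 fold change was 2.31 (SE 0.21, adjusted p = 3.55e-09), and HOXB4 was called in all 4 targets (largest adjusted p 0.00224, ZNF711). It shares 17.1% of its exons with HOXB3 and other genes on the same strand, so that some of its counts may belong to HOXB3.

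**Figure D2:**
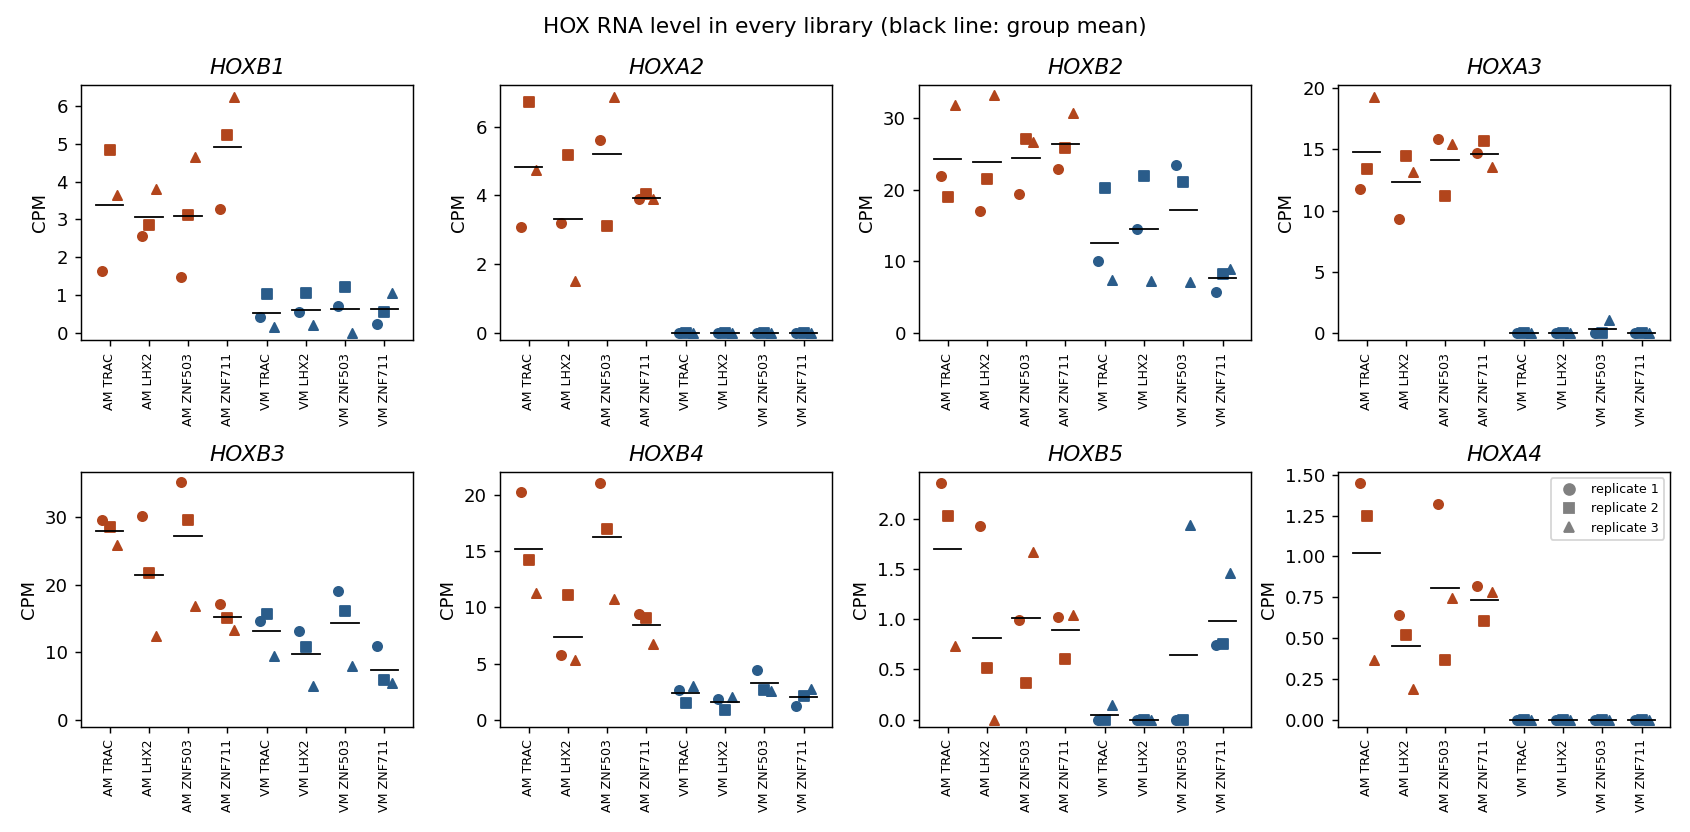
Level of 8 HOX genes in CPM (vertical axes, each panel on its own scale from 0) in the 3 libraries of each group, with marker shape for the replicate number and a black line at the group mean. HOXA2, HOXA3 and HOXA4 sit at 0 in VM apart from 1 library at 1.07 CPM for HOXA3, HOXB4 separates without overlap, and HOXB2 and HOXB3 overlap.

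The genes of paralog group 5 and the remaining group 4 genes were near the limit of these libraries. HOXB5, which acts in gut neural crest, was 0 to 2.35 CPM in AM (median 1.01) and 0 to 1.93 CPM in VM (median 0), with overlap. Its averaged log2 fold change was 2.44 (SE 0.73, adjusted p = 0.0113), and 4.23 (SE 0.92, adjusted p = 0.0023) without the libraries numbered 3. In TRAC its adjusted p was 0.0511, and it was called there with the replicate block (0.0196), with DESeq2 (0.034), without a filter (0.038), with library size alone (0.0448) and without the libraries numbered 3 (0.0402). In LHX2 it was called with a block within each condition alone (adjusted p = 0.0296, against 0.130 without a block). In ZNF711 it was 1.02, 0.604 and 1.04 CPM in AM and 0.742, 0.752 and 1.46 CPM in VM, a log2 fold change of -0.16 (SE 1.11), and that sign turned under 4 of the alternatives run.

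HOXA4 held 47 counts over the 12 AM libraries, between 1 and 8 in each, and none in VM, a mean at least 14.9-fold over the limit. HOXA5, which the lung and the neck skeleton need, held 39 counts in 7 AM libraries and none in VM (at least 12.1-fold), and HOXC4 held 38 counts in 9 AM libraries and none in VM (at least 11.9-fold). These 3 did not pass the filter, and a fit without a filter, which called 15.8% of 38838 genes, called each of them (adjusted p = 1.17e-05 HOXA4, 0.00126 HOXA5, 0.000109 HOXC4). A count in all 12 AM libraries and in none of the 12 VM libraries was rare: 10 of the 38838 genes with any count (0.0257%) showed it. HOXA2 and HOXA4 were 2 of these 10, and the noncoding HOXA-cluster genes HOTAIRM1 and HOXA-AS2 were 2 more. HOXA4 shares 31.0% of its exons with genes on the same strand, and 16.3% overlap HOXA-AS2 and HOXA-AS3 on the other strand. Where the counting did not use strand, reads of HOXA4 and HOXA-AS2 cannot be fully told apart.

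The other 13 genes with a count had at most 37 counts in either condition. HOXD3, HOXD4 and HOXD8 held 7, 11 and 12 counts in AM and none in VM. HOXD1 held 11 and 4, HOXB6 held 6 and 3, HOXB7 held 15 and 5, and HOXB9 held 10 and 7. HOXC6, HOXC12, HOXD9 and HOXD13 held at most 3 counts in either condition. HOXC13, a gene of hair and nail, held 37 counts in 11 AM libraries and 32 in 9 VM libraries. HOXA13, a gene of digits and hindgut, held 5 counts in 1 AM library and 19 in 7 VM libraries, of which 9 were in ZNF503 replicate 3 and 5 in TRAC replicate 1. Neither was called in the fit without a filter (adjusted p = 0.9999 for both).

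Within single targets the calls depended on the spread between libraries. Called HOX genes numbered 4 of 7 in TRAC (11.3% of all genes tested), 3 in LHX2 (8.56%), 3 in ZNF503 (8.86%) and 5 in ZNF711 (13.2%), and each was higher in AM. With the replicate number as a block they numbered 6 (19.4%), 5 (15.7%), 5 (14.9%) and 6 (23.4%). HOXA2, HOXA3 and HOXB4 were called in all 4 targets in both fits. All 3 AM libraries were above all 3 VM libraries in 6 of the 7 genes in TRAC (14.3% of all genes tested), 4 in LHX2 (12.5%), 4 in ZNF503 (12.7%) and 6 in ZNF711 (16.5%).

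**Figure D3:**
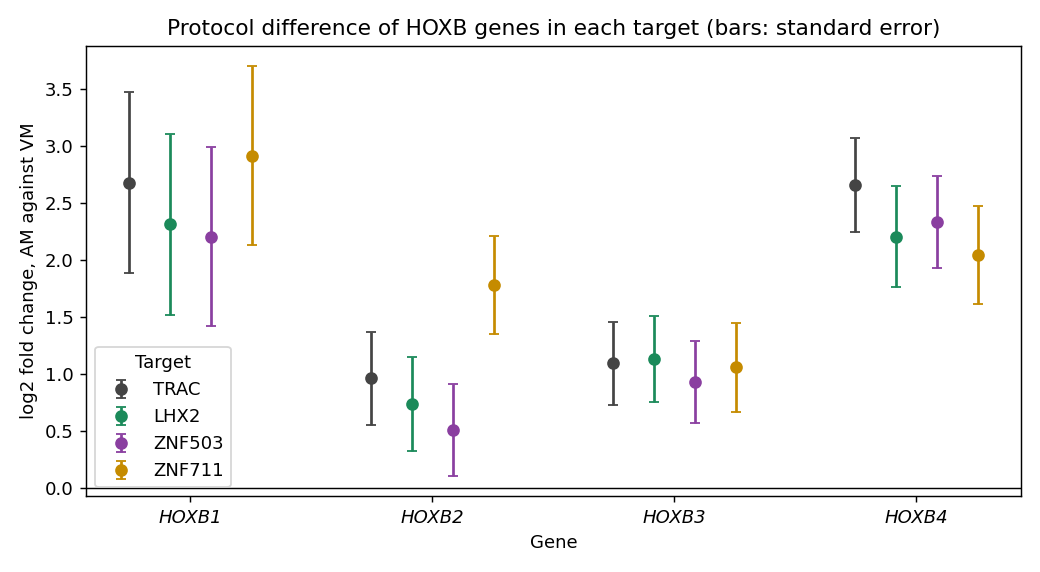
Log2 fold change of AM against VM (vertical axis) for HOXB1, HOXB2, HOXB3 and HOXB4 in each target, with bars of 1 standard error from the edgeR fit. All 16 values are above 0, and for HOXB2 they run from 0.51 (ZNF503) to 1.78 (ZNF711).

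The replicate number moved with several HOX genes. Taken within each number, HOXB2 was 1.51-fold higher in AM for number 1, 1.31-fold for number 2 and 3.99-fold for number 3 (ratios of means over 4 targets), with AM above VM in 3, 2 and 4 of the 4 targets. HOXB3 was 1.95-, 1.96- and 2.46-fold higher and HOXB4 5.52-, 7.32- and 3.32-fold higher, in 4 of 4 targets each. HOXB1 was 4.65-, 4.13- and 13.2-fold higher, also in 4 of 4 targets each. HOXB5 was 8.48-, 4.67- and 0.971-fold, so that number 3 showed no excess. The share of all genes with AM above VM in 4 of 4 targets was not counted. Without the libraries numbered 3 the averaged log2 fold change of HOXB2 was 0.59 (adjusted p = 0.0120, edgeR).

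Within AM, number 3 stood apart from number 1 in opposite ways for neighbouring genes. HOXB1 and HOXB2 were higher in number 3 in all 4 targets (ratios 1.48 to 3.13 and 1.34 to 1.95), and HOXB3 and HOXB4 were lower in all 4 (ratios 0.409 to 0.873 and 0.511 to 0.921). HOXB3 was also lower in number 3 of VM in all 4 targets (ratios 0.380 to 0.644), and HOXB1 and HOXB2 in 3 of 4. HOXB4 was higher in number 3 of VM in 3 of 4 (ratios 0.578 to 2.2). No test was run on these ratios, and the labels do not say what a number marks. The share of all genes that moved alike in all 4 targets was not counted.

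In VM the HOXB2 level also went with the summed markers of several cell types: hepatic endoderm (AFP, APOA4, AHSG, APOA1, FOXA2 and SOX17), cardiomyocyte and fibroblast. Numbers 1 and 2 of TRAC, LHX2 and ZNF503 held 10.1 to 23.5 CPM of HOXB2 with 1291 to 2974 CPM of the hepatic markers, 32850 to 39590 CPM of the cardiomyocyte markers and 1288 to 1842 CPM of the fibroblast markers. Number 3 of the same targets held 7.09 to 7.45 CPM with 8262 to 22240 CPM of hepatic markers, and the 3 ZNF711 libraries 5.69 to 8.99 CPM with 8427 to 24250 CPM. These last 6 libraries held 9881 to 17780 CPM of the cardiomyocyte markers and 2457 to 3772 CPM of the fibroblast markers, so that none of the 3 sums overlapped with those of the first 6. HOXB3 was 10.8 to 19.0, 5.00 to 9.39 and 5.43 to 10.9 CPM in the same sets, and HOXB4 0.850 to 4.46, 2.001 to 2.98 and 1.24 to 2.72 CPM. In AM, where the hepatic markers stayed at 109 to 1133 CPM, HOXB2 was 26.7 to 33.3 CPM in number 3 and 17.02 to 27.1 CPM in numbers 1 and 2, and the marker sum was 415 to 1133 CPM and 109 to 476 CPM. Higher hepatic marker sums thus went with lower HOXB2 in VM and with higher HOXB2 in AM. The part of any of these cell types in the HOXB2 values was not tested.

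**Figure D4:**
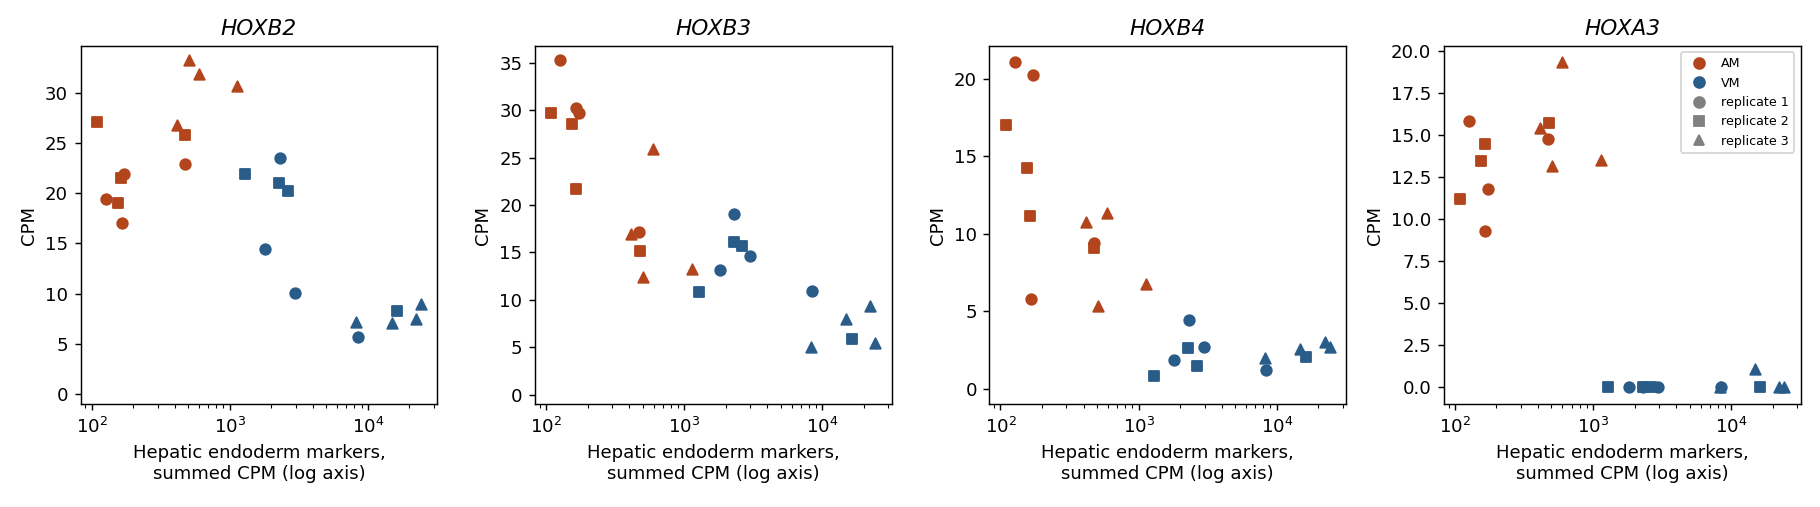
Level of HOXB2, HOXB3, HOXB4 and HOXA3 in CPM (vertical axes, linear) against the summed CPM of 6 hepatic endoderm markers (horizontal axis, logarithmic) in each of the 24 libraries, coloured by condition. The VM libraries with the lowest HOXB2, 5.69 to 8.99 CPM, are those with marker sums of 8262 CPM and above.

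The comparisons of each target with TRAC, and of the AM against VM difference between targets, ask whether LHX2, ZNF503 or ZNF711 editing went with a change in HOX genes. No HOX gene was called in any of the 9, with or without the block across all libraries. In the fit without the block 0.0169% of all genes tested were called in VM ZNF711 against TRAC, 0.00564% in the ZNF711 difference of differences and 0% in the other 7. With the block the shares were 1.13% in AM LHX2, 0.00564% in AM ZNF503, 0.0395% in AM ZNF711, 0.00564% in VM LHX2, 2.27% in VM ZNF711 and 0% in VM ZNF503, with 0%, 0% and 0.0282% for the 3 differences between targets. At an unadjusted p below 0.05, the count was 1 HOX gene in AM LHX2, 2 in AM ZNF711, 2 in VM ZNF711 and 1 in VM ZNF503, each against TRAC, 1 each in the ZNF503 and ZNF711 differences between targets, and 0 in the other 3. Over all 17724 genes tested the same threshold was passed by 1372, 618, 1666 and 274 genes in those 4 comparisons with TRAC, and by 346 and 1135 in the 2 differences. DESeq2 called 0 HOX genes in each of the 9. The 6 comparisons with TRAC share the 3 TRAC libraries of their condition.

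Of the 7 HOX genes tested, HOXB4 had the lowest unadjusted p in AM LHX2 (0.0115). Its values of 5.78, 11.1 and 5.32 CPM were all below those of AM TRAC at 20.3, 14.2 and 11.3 CPM, a pattern that 9.72% of all genes tested showed. The log2 fold change was -1.04 (SE 0.38, adjusted p = 0.526, edgeR). In AM ZNF711, HOXB3 (log2 fold change -0.88, SE 0.36) and HOXB4 (-0.85, SE 0.38) were below AM TRAC in all 3 libraries, as were 6.13% of all genes tested, and neither was called (adjusted p = 1). In VM ZNF711, HOXB3 gave -0.85 (SE 0.39, adjusted p = 0.501). With a block for the replicate number within each condition, added after the values were seen, HOXB3 was called lower in ZNF711 in both AM (adjusted p = 0.0496, with 0.53% of all genes tested called) and VM (adjusted p = 0.0238, with 8.38% called).

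Of the values above TRAC, HOXB5 in VM ZNF711 was 0.742, 0.752 and 1.46 CPM against 0, 0 and 0.149 CPM, with no overlap, as for 5.41% of all genes tested (log2 fold change 3.59, SE 1.499, adjusted p = 0.447). In VM ZNF503, HOXA3 and HOXB5 had fitted log2 fold changes of 3.95 and 3.0 (adjusted p = 1 for both). Both rested on replicate 3, which held all 5 HOXA3 and all 9 HOXB5 counts of that group, and without it the values were 0 and -1.75. The same library held 9 of the 19 VM counts of HOXA13.

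The genes that work with the HOX proteins moved in part with them. In the averaged comparison 7 of the 9 cofactor genes of the PBX, MEIS and PKNOX families were higher in AM and none lower, where 16.8% of all genes tested were called higher, with a median log2 fold change of 0.65, against -0.0077 over all genes tested. Among the genes called were MEIS3 (1.26, SE 0.094), MEIS2 (1.19, SE 0.10) and MEIS1 (0.70, SE 0.14). MEIS2 was 231 to 344 CPM in AM and 84.3 to 180 CPM in VM. Every AM library was above every VM library, as for 2.69% of all genes tested.

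The ParaHox genes are relatives of the HOX genes outside the clusters, and the CDX genes among them open the trunk part of the clusters. Of these 6 genes 2 were tested and 1 was called, where 34.5% of all genes tested were called. PDX1, a gene of pancreas and duodenum, was 4.37 to 22.9 CPM in AM and 0.204 to 6.41 CPM in VM (log2 fold change 2.52, SE 0.37, adjusted p = 1.27e-05). CDX2 was 8.79 to 25.4 CPM in AM and 0.213 to 33.2 CPM in VM, and was called with the block only (log2 fold change 0.65 without it; adjusted p = 0.337, with it 0.0316).

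Of 18 listed noncoding genes inside the clusters, 3 were tested and 2 were higher in AM, as were 16.8% of all genes tested. HOTAIRM1, at the low-numbered end of the HOXA cluster, was 2.17 to 6.77 CPM in AM and 0 in every VM library (adjusted p = 1.26e-08). HOXA-AS2, which overlaps HOXA3, was 0.963 to 4.395 CPM in AM and 0 in every VM library (adjusted p = 1.89e-07). HOXB-AS1, which overlaps HOXB2 and HOXB3 and is named after its values were seen, was 5.13 to 15.7 CPM in AM and 2.80 to 19.2 CPM in VM (log2 fold change -0.02, SE 0.28, adjusted p = 0.959).

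Of 13 genes of retinoic acid handling and of the hindbrain regulators that act on HOX genes, 6 were higher in AM and 2 lower, where 16.8% and 17.6% of all genes tested were, with a median of 0.51. MEIS2 is in this list and among the cofactor genes above, and is counted as higher in both. CYP26C1 and CYP26A1, enzymes that break retinoic acid down, were lower in AM at the time of harvest (log2 fold changes -5.11, SE 0.41, and -4.99, SE 0.72), CYP26C1 at 0 to 3.902 CPM in AM against 9.70 to 73.0 CPM in VM. Of 23 subunits of the Polycomb and trithorax complexes, which keep HOX clusters shut or open, 4 were higher and 5 lower, shares near those of all genes tested, with a median of 0.05. The largest among them was KDM6A, an enzyme that removes the Polycomb mark, at -0.50 (SE 0.088, adjusted p = 6.89e-05). The lists were drawn up with earlier results of these data known, and no test of a list as a whole was run.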

How the data were processed

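The authors deposited raw read counts per gene for 24 libraries. STAR and GRCh38 are named in the submitters' processing notes; the counting program, its strand setting and the annotation release are not given in the sources used here. The labels name polyA RNA in one field and ribosomal depletion with RiboErase in another. All 24 count columns matched a library by title, and 0 rows named no gene. The 38 genes and the gene lists were chosen with earlier results of these data known.

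Counts were fitted with edgeR 4.0.16 in R 4.3.3 (TMM scaling, filterByExpr, robust quasi-likelihood fit, 1 mean for each of 8 groups, 16 residual degrees of freedom) in 14 comparisons, with Benjamini-Hochberg adjustment over 17724 genes. CPM use TMM-scaled library sizes. A mean and SD of CPM describe libraries, and limits set from 3 counts cover counting error only. Values in every library are given for genes averaging at least 5 CPM in a group. Other list genes are named where called, at most 4 a list by size of fold. Some genes of these lists are counted but not reported here by name. Symbols were found for 62639 of 62757 identifiers; lengths and overlaps are from GENCODE 29.

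Unless a block is named, the fits did not use the replicate number. Deviations from group means of same-numbered libraries correlated at 0.125 to 0.786 over 11428 genes in every pair compared. For that reason the number was added as a block in an alternative fit. Blocked values are given where they change a call of a HOX gene. Counts over the marker and gene lists are from the fit without the block. With the block further genes of these lists were called, which those counts leave out. On simulated data of 16700 genes the averaged comparison recovered 91 of 100 genes changed by 1 and 98 of 100 changed by 2 on the log2 scale, with 14 false calls, and the TRAC comparison 35 and 90, with 3. The changed genes were drawn from genes of all levels. Every simulated gene had the same variation between libraries, with no shared replicate effect. Recovery of HOX genes with few counts was not tested. Alternatives were other scalings, other filters, DESeq2 1.42.0, fits on the compared groups only, replicate blocks and leaving out each library.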

Additional observations from a re-analysis of the deposited data

How the results depend on the processing

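The averaged comparison called 7 HOX genes in each of 24 fits that left out 1 library, and 7 to 10 under the other 8 alternatives, 10 where HOXA4, HOXA5 and HOXC4 entered through no filter or a filter of 1 CPM in 3 libraries. Leaving out 1 library gave 3 to 5 calls in TRAC, 3 to 4 in LHX2, 3 to 3 in ZNF503 and 4 to 5 in ZNF711, and 0 to 0 in the 9 comparisons with or between targets. The count moved by over 1.5 times in TRAC without a filter (7), in LHX2 with DESeq2 (5), the replicate block (5) and the replicate block within each protocol (5), and in ZNF503 with the replicate block (5). The block within each protocol and the fit without the libraries numbered 3 were added after seeing the data. That block called 1 HOX gene, HOXB3, in AM ZNF711 and 1, also HOXB3, in VM ZNF711 against TRAC; the cause was not tested. The replicate block also raised calls over all genes, from 0 to 201 in AM LHX2 and from 3 to 402 in VM ZNF711 against TRAC, and beside the calls named in the report it changed no call of a HOX gene. HOXB5 in AM against VM ZNF711 turned from -0.16 to 1.34 with the block within each protocol, 0.10 without the libraries numbered 3, and spanned -0.31 to 0.24 when 1 library was left out (above 0 without AM replicate 2, 0.08, or VM replicate 3). HOXB5 in VM ZNF503 against TRAC spanned -1.75 (without VM ZNF503 replicate 3) to 4.72 in the same way. HOXB1 lost its calls in TRAC and ZNF711 with the block within each protocol (adjusted p = 0.111 and 0.0877), which moved the averaged HOXB5 value from 2.44 to 4.25, and in TRAC without the libraries numbered 3 (0.169). Of the gene values under alternatives, 688 kept direction and call, 36 gained a call, 10 lost one and 5 turned sign. Genes under about 1 CPM rest on a few counts a library, which limits the precision of their values.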
